A study of Homo sapiens with 21 samples.

Results

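The genes described here are 45 members of the nuclear receptor superfamily, taken by gene symbol from a table of 19683 symbols, with HNF4A left out of the selection. A member counted as detected with at least 10 counts in at least 3 libraries, and 31 of the 45 were detected. The cells were HepG2/C3A, a human hepatoma line that keeps many hepatocyte traits, with a genotype given as WT and a medium of MEM with FBS in every group. The control was a 2D monolayer; the other groups were 3D spheroids, formed in ultra-low attachment plates, kept in a rotating ClinoReactor and collected on Days 3, 7, 10, 14, 21 and 28, with 3 libraries in each of the 7 groups. TempO-Seq, the assay used, ligates pairs of gene-specific detector oligos on RNA and counts the products, and since each probe pair has its own efficiency, levels are set side by side between libraries and never between genes. The labels number biological replicates without saying whether each was its own culture; p-values therefore reflect the variation among these libraries, which may be technical, and 1 line stands for liver cells throughout.

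Nuclear receptors are transcription factors with a zinc-finger DNA-binding domain and a ligand-binding domain; a bound ligand exchanges corepressors for coactivators. Several of them, including the bile acid, oxysterol, fatty acid, xenobiotic, retinoid and thyroid hormone receptors, bind DNA as partners of retinoid X receptors, often at repeats of the half-site AGGTCA. In liver, NR1H4 (FXR) senses bile acids, NR1H3 (LXR alpha) oxysterols, PPARA fatty acids, NR1I2 (PXR) and NR1I3 (CAR) foreign compounds and NR3C1 glucocorticoids, while the REV-ERB receptors NR1D1 and NR1D2 repress genes of the circadian clock.

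The promoter windows of 3 receptors are shown because these genes were among the members that changed most and because the windows hold letters read by receptors or clock factors. Each is the 250 bases before a RefSeq transcript start on GRCh38.p14, on the plus strand, with no base inside an annotated GENCODE exon. The NR1H4 and NR1D2 windows lie inside the annotated genes, which start at 100473708 and 23945260, and so precede a later start of the gene. The PPARG window ends just before the annotated start of its gene. Capitals mark the E-box CACGTG, the D-box TTATGTAA or its reverse complement TTACATAA, and the half-site AGGTCA or its reverse complement TGACCT.
NR1D2, chr3:23945871-23946120: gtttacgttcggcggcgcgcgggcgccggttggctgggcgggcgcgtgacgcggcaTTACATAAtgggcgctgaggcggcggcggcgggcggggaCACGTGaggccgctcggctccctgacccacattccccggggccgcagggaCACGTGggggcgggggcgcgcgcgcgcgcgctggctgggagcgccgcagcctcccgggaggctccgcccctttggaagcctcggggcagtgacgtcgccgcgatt
NR1H4, chr12:100503110-100503359: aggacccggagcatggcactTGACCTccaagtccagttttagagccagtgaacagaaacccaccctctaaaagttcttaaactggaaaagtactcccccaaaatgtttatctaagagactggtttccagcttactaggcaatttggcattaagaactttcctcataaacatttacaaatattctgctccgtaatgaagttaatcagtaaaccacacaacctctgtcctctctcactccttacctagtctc
PPARG, chr3:12287118-12287367: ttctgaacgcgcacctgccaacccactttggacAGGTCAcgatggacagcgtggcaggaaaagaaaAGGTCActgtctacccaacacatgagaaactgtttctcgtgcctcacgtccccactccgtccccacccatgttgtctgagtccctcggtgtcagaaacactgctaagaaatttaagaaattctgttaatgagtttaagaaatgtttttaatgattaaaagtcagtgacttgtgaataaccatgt
Counted back from the start, the NR1D2 window had E-boxes at 155 to 150 and 105 to 100 bases upstream and a D-box at 194 to 187. The NR1H4 window had a half-site at 230 to 225, and the PPARG window had half-sites at 217 to 212 and 184 to 179. With both strands searched, 6.34% of 35116 RefSeq windows of this length held the E-box, 0.834% the D-box and 12.1% the half-site. Windows existed for 40 of the 45 members. Counted by gene, where any window of a gene was enough, 5 of them held the E-box, 1 the D-box and 11 the half-site. A gene can have several windows, so these numbers of genes cannot be set against the shares of single windows. A match shows only that the letters are there.

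The depth of a library was 18760232 to 43443262 counts, median 31997292. All 9 hepatocyte markers were above 0 in every group, and their summed level was 10600 to 11400 CPM (counts divided by a library size that was scaled by the trimmed mean of M-values, TMM) in the monolayer, 51300 to 53100 on Day 3 and 40600 to 49900 on Day 28. The summed level of 7 fibroblast and stellate cell markers was at most 3.35 CPM in any library, with COL1A1, COL1A2 and DCN at 0 throughout. Endothelial markers summed to at most 1.16 CPM, with KDR and STAB2 at 0, and among 7 immune markers PTPRC and CD163 were at 0. The part of these marker levels in the receptor results was not tested.

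Nuclear receptors moved in both directions between monolayer and spheroids, as did all genes tested. A gene was called at an edgeR quasi-likelihood adjusted p under 0.05 over 12345 genes, and SEs come from that fit. At Day 3, 12 of the 31 tested receptors were called higher than in 2D and 12 lower, which is 77.4% called against 78% of all genes tested (40.1% higher and 37.8% lower); their median log2 fold change was -0.04 against 0.06 for all genes. At Day 28, 13 were higher and 12 lower, 80.6% against 73.4% of all genes (38.5% higher and 34.8% lower), with a median of 0.1 against 0.08. On Day 7, 14 receptors were higher and 12 lower, while 78.7% of all genes were called, 40.4% higher and 38.4% lower. On Day 10 the numbers were 13 and 14 (77.9% of all genes called, 40% higher and 37.9% lower). Day 14 had 14 higher and 10 lower (74.4%, with 38.7% and 35.7%), and Day 21 had 15 and 12 (74.3%, with 39.3% and 35.1%). These 6 comparisons share the monolayer libraries, so 1 deviating control would appear in all of them. In bulk RNA, fewer cells with a transcript and less of it per cell cannot be told apart.

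Against 2D, 10 receptors were higher at each of the 6 days: THRB, RXRA, NR1H3, NR1H4, NR2C1, NR2F2, NR2F6, NR5A2, NR6A1 and NR0B2. Another 10 were lower at each day: RARA, PPARD, PPARG, NR1D1, NR1D2, RORA, NR1H2, HNF4G, NR2C2 and NR3C1. Each set is 32.3% of the 31 tested receptors, while 27.3% of all genes tested were higher and 25.7% lower than 2D at all 6 days. NR5A2 passed the filter on low counts through spheroid libraries, so its calls in the first set lend no support. NR5A1 was lower on Day 10 and higher from Day 14, and RXRB and NR3C2 passed at no day. With scaling by library size alone, which moves the median of all genes from 0.06 to 0.27 on Day 3 and from 0.08 to 0.3 on Day 28, no member called under both scalings changed direction, while some calls were lost. HNF4G was then not called on Day 14 (-0.04, adjusted p = 0.551), Day 21 (-0.09, adjusted p = 0.152) or Day 28 (0.01, adjusted p = 0.894), and THRA not on Day 3 (-0.27, adjusted p = 0.0867).

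**Figure D1:**
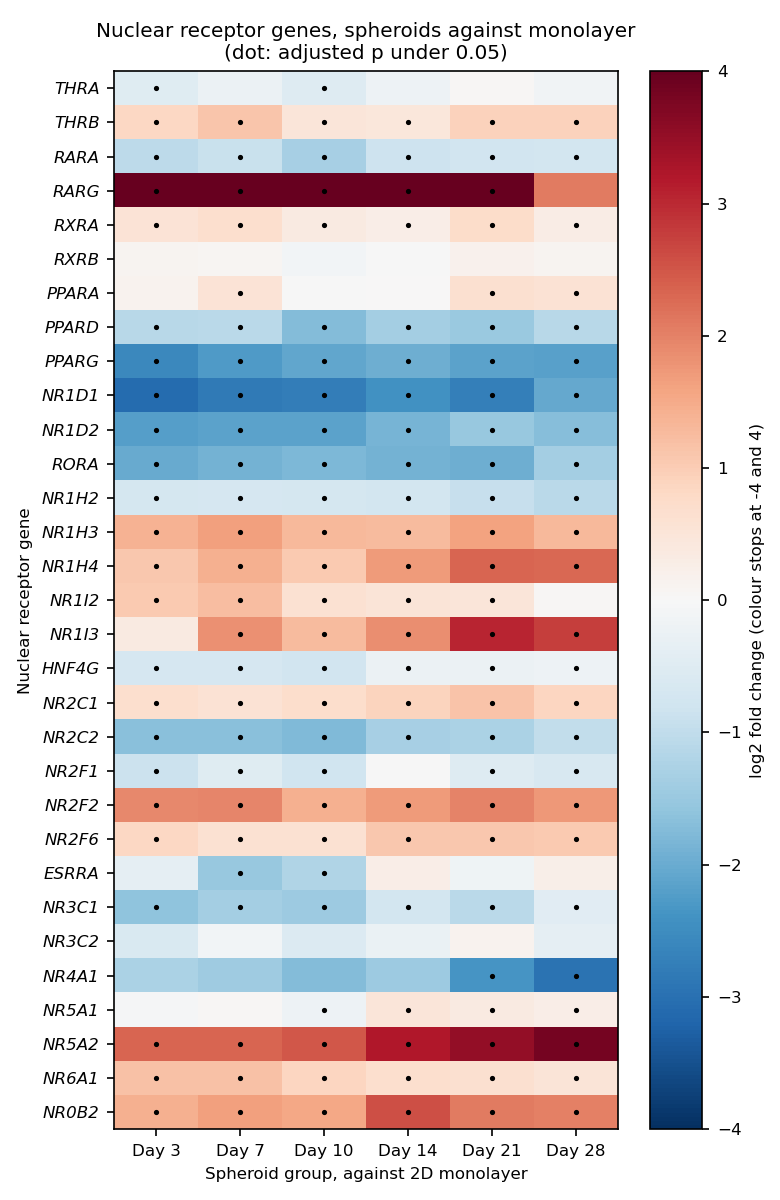
Log2 fold change against the 2D monolayer of the 31 tested receptors (rows) at 6 spheroid days (columns), with colour limited to 4 in either direction and a dot where edgeR's adjusted p was under 0.05. Receptors higher at each day, such as NR0B2 and NR1H4, and receptors lower at each day, such as PPARG and NR1D1, form 10 rows each.

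The repressors of the clock and their activating counterpart were lower in spheroids at every day. NR1D1, which encodes REV-ERB alpha, stood at 16.9, 21.4 and 13.7 CPM in the 2D libraries, 2.39, 1.56 and 2.2 on Day 3 and 4.27, 4.77 and 3.65 on Day 28. No spheroid library of any day reached the lowest monolayer library. NR1D1 fell by 3.07 ± 0.244 on the log2 scale on Day 3 (SE, adjusted p = 3.67e-13) and by 2.03 ± 0.23 on Day 28 (adjusted p = 1.94e-09), and between Day 3 and Day 28 it rose by 1.04 ± 0.252 (adjusted p = 0.000661). NR1D1 lies on chromosome 17, 40092787 to 40100725 on the minus strand (GRCh38, GENCODE 29), and 263 exonic bases overlap the thyroid hormone receptor gene THRA on the plus strand. Where the detector oligos of the 2 genes lie was not analysed here, and no source used here says whether counting separated the strands. What the overlap means for the counts was not tested.

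NR1D2, REV-ERB beta, whose window with 2 E-boxes and a D-box is printed above, stood at 135, 138 and 141 CPM in 2D, 29.6, 30.6 and 29.4 on Day 3 and 43.1, 42.3 and 42.4 on Day 28. Its groups did not overlap at any day. NR1D2 fell by 2.21 ± 0.0798 on Day 3 (adjusted p = 1.89e-22) and by 1.70 ± 0.0784 on Day 28 (adjusted p = 2.48e-19), with a rise of 0.51 ± 0.0793 from Day 3 to Day 28 (adjusted p = 1.29e-06). RORA, an activator that shares DNA elements with the REV-ERBs, stood at 37.1, 41.7 and 42.9 CPM in 2D, 10.6, 10.1 and 9.6 on Day 3 and 11.6, 17.9 and 18 on Day 28. It fell by 2.00 ± 0.18 on Day 3 (adjusted p = 2.85e-10) and by 1.35 ± 0.176 on Day 28 (adjusted p = 2.39e-07), and Day 10 replicate 3, at 16.6 CPM, stood above the 9.81 and 8.96 of that day's other libraries.

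Of 17 tested clock genes outside the receptor family, 4 rose and 10 fell on Day 3 (median -0.70) and 4 rose and 10 fell on Day 28 (median -0.81). DBP and HLF, D-box-binding activators, rose on Day 28 by 1.93 ± 0.238 and 1.59 ± 0.0721. BHLHE40, an E-box repressor, fell by 2.01 ± 0.178 and CRY1, a repressor of the CLOCK complex, by 1.63 ± 0.069. DBP rose from 1.36 ± 0.318 CPM (SD, n = 3) in 2D to 5.23 ± 0.566 on Day 28, and CRY1 went from 173 ± 5.4 to 56.1 ± 1.9. CLOCK itself stood at 6.65 ± 0.388 CPM in 2D and 5.39 ± 0.852 on Day 28 and was not called (-0.30 ± 0.153, adjusted p = 0.0805); it was singled out after its values were seen.

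**Figure D2:**
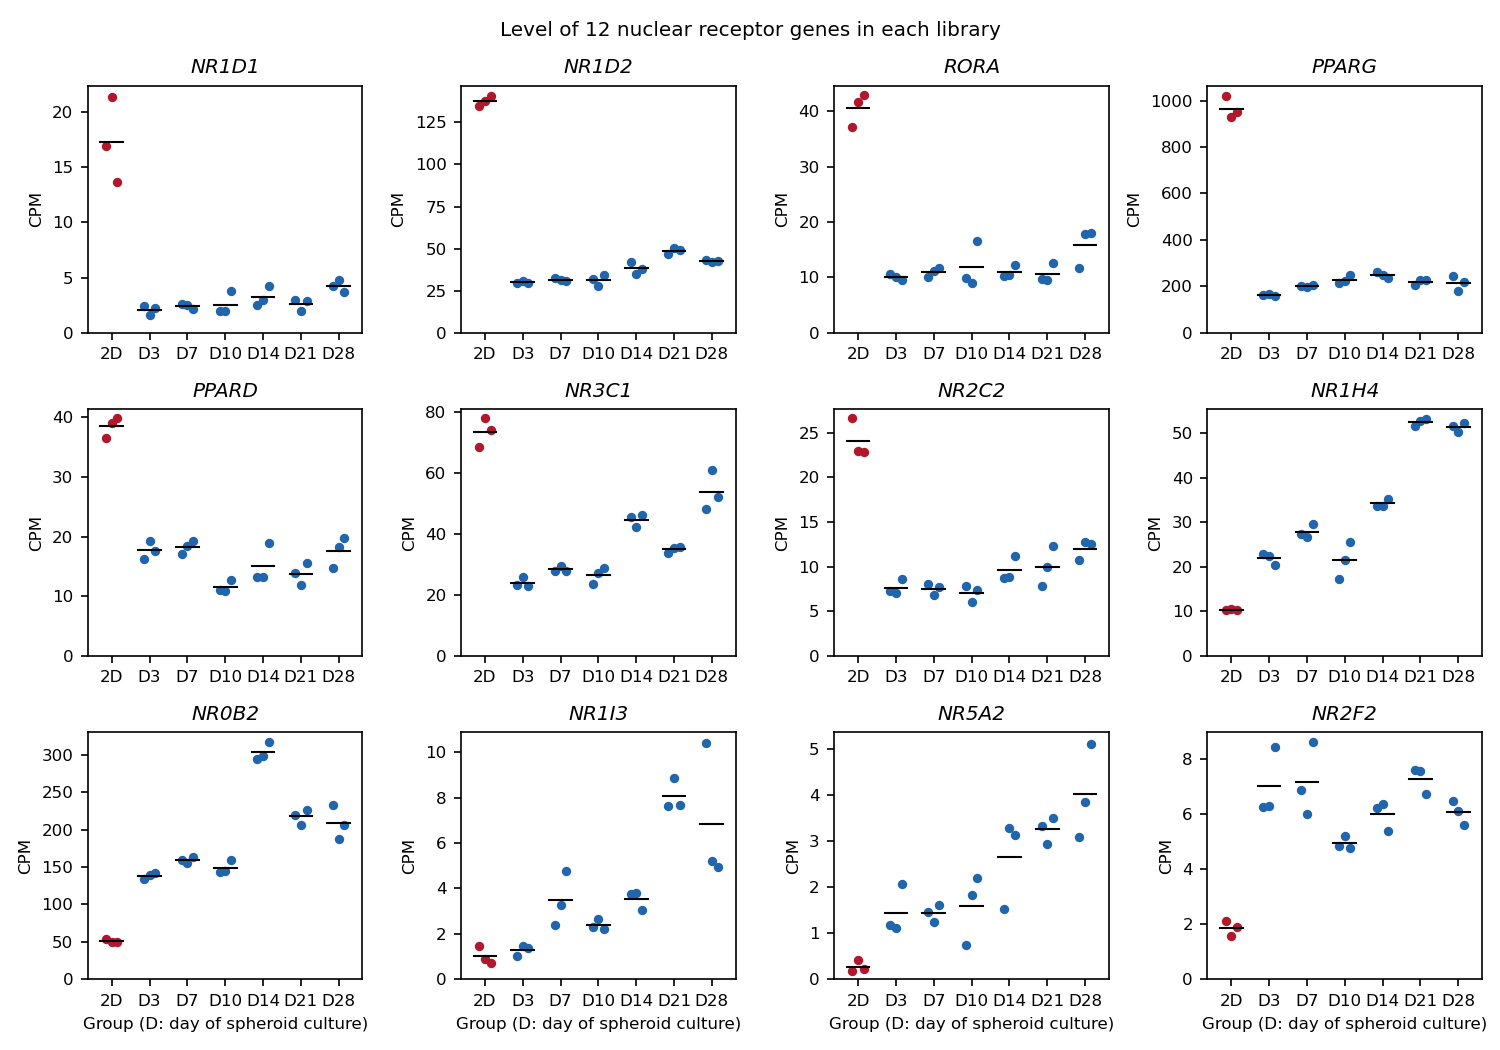
CPM of 12 receptors in each of the 21 libraries, by group, with 2D in red, spheroid days in blue and a black line at each group's mean. NR1D1, NR1D2, RORA and PPARG drop from 2D to Day 3 and stay low, while NR1H4, NR1I3 and NR5A2 stand higher at Days 21 and 28 than on Day 3.

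The 3 PPARs, receptors for fatty acids and their derivatives, differed in direction. PPARG, known for its role in fat storage, had 1020, 929 and 949 CPM in the monolayer, 162, 168 and 158 on Day 3, 260, 247 and 236 on Day 14 and 244, 179 and 218 on Day 28. Every spheroid library was below every monolayer library. PPARG fell by 2.57 ± 0.081 on Day 3 (adjusted p = 1.07e-23) and by 2.18 ± 0.0799 on Day 28 (adjusted p = 9.59e-22), and rose between those days by 0.39 ± 0.0775 (adjusted p = 5.71e-05).

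PPARD, the widely expressed PPAR, stood at 36.6, 39 and 39.9 CPM in 2D, 11, 10.8 and 12.8 on Day 10 and 14.8, 18.2 and 19.8 on Day 28. It fell by 1.12 ± 0.127 on Day 28 (adjusted p = 1.7e-09), and its lowest group mean was Day 10. PPARA, the main PPAR of hepatocytes and the target of fibrate drugs, had 23.4, 23.6 and 27.4 CPM in 2D and 35.9, 36.1 and 39.3 on Day 28. PPARA rose by 0.58 ± 0.111 on Day 28 (adjusted p = 2.27e-05) and was also called at Days 7 and 21, but not on Day 3 (0.15, adjusted p = 0.211), Day 10 or Day 14. With scaling by library size alone PPARA was called higher on Day 3 (0.37, adjusted p = 0.00645).

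Of 16 tested PPAR alpha targets, 10 rose and 4 fell on Day 3 (median 0.78), and 12 rose and 3 fell on Day 28 (median 0.95). FABP1, a fatty acid carrier, went from 22.3 ± 2.9 CPM (SD, n = 3) in 2D to 357 ± 70.6 on Day 28, and EHHADH, a peroxisomal enzyme of fatty acid oxidation, from 3.64 ± 0.783 to 39.1 ± 0.992. PLIN2, a coat protein of lipid droplets, went the other way, from 764 ± 23.7 to 162 ± 8.94, and fell by 2.24 ± 0.0725. VNN1, a pantetheinase, fell by 4.60 ± 0.669, a value that ranged from -5.68 to -3.98 as single Day 28 libraries were left out. It averaged only 1.69 CPM over the 2D and Day 28 libraries, most of it in 2D. The VNN1 test therefore lends no support here, although its call is part of the counts above. At Day 28 against Day 3, 3 of these targets rose and 6 fell, while PPARA rose by 0.43 ± 0.111 (adjusted p = 0.00121).

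The bile acid receptor FXR and its partner SHP were higher in spheroids at every day and rose further from Day 3 to Day 28. NR1H4, the bile acid receptor, stood at 10.3, 10.6 and 10.3 CPM in 2D, 22.9, 22.3 and 20.4 on Day 3, 17.2, 21.6 and 25.6 on Day 10, 33.6, 33.6 and 35.3 on Day 14 and 51.5, 50.3 and 52.2 on Day 28. Its spheroid libraries all exceeded the monolayer, and those of Days 21 and 28 exceeded all earlier ones. NR1H4 rose by 1.07 ± 0.103 on Day 3 (adjusted p = 2.88e-11), by 2.30 ± 0.103 on Day 28 (adjusted p = 1.07e-19) and by 1.23 ± 0.0972 between Day 3 and Day 28 (adjusted p = 9.57e-13).

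NR0B2 encodes SHP, a receptor without a DNA-binding domain that FXR induces and that represses bile acid synthesis. It stood at 54.2, 49.9 and 49.4 CPM in 2D, 134, 139 and 142 on Day 3, 143, 145 and 160 on Day 10, 295, 299 and 317 on Day 14 and 233, 187 and 206 on Day 28. Day 14 was its highest group, with no library of another day reaching it. NR0B2 rose by 1.44 ± 0.0706 on Day 3 (adjusted p = 8.42e-19), by 2.03 ± 0.0715 on Day 28 (adjusted p = 1.69e-22) and by 0.59 ± 0.0681 between the 2 days (adjusted p = 4.58e-09). The gene spans chromosome 1, 26911489 to 26913966, on the minus strand.

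NR5A2, LRH-1, which acts with FXR and SHP on bile acid genes, was the receptor with the largest rise on Day 28 among those with a mean of at least 1 CPM, from a low base. Its libraries held 0.169, 0.407 and 0.228 CPM in 2D (4, 16 and 7 counts), 1.17, 1.11 and 2.06 on Day 3 and 3.09, 3.86 and 5.12 on Day 28. NR5A2 stood 3.82 ± 0.407 higher on Day 28 than in 2D, and rose by 1.50 ± 0.331 from Day 3 to Day 28 (adjusted p = 0.000233). Only 1 monolayer library held 10 counts, so NR5A2 passed the filter on low counts through spheroid libraries, where it was high. Its tests against 2D therefore lend no support here, although its calls are part of the counts of receptors called. Its paralog NR5A1, SF-1, a receptor best known from steroid-producing tissues, had 8045 to 19945 counts per library. NR5A1 stood at 427, 391 and 385 CPM in 2D, 394, 375 and 397 on Day 3, 333, 378 and 328 on Day 10, 597, 547 and 549 on Day 14 and 517, 457 and 457 on Day 28. Days 3 and 7 overlapped 2D, Day 10 lay below it and Days 14, 21 and 28 above it. NR5A1 rose by 0.49 ± 0.0643 on Day 14 (adjusted p = 2.79e-08) and by 0.25 ± 0.0643 on Day 28 (adjusted p = 0.000805), and the Day 10 fall of 0.21 ± 0.0643 was lost with scaling by library size alone (-0.07, adjusted p = 0.222). That scaling instead called NR5A1 higher on Day 3 (0.17, adjusted p = 0.00549) and Day 7 (0.21, adjusted p = 0.00107). The detector oligo sequences were not analysed here, so the identity of the NR5A1 product rests on its label.

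The LXRs, receptors for oxysterols, moved apart. NR1H3, LXR alpha, stood at 11.2, 11.8 and 12.4 CPM in 2D, 29.5, 31.6 and 31.3 on Day 3 and 36.6, 27.2 and 24.1 on Day 28. It rose by 1.38 ± 0.166 on Day 3 (adjusted p = 1.1e-07) and by 1.30 ± 0.167 on Day 28 (adjusted p = 3.67e-07), with 189 exonic bases shared with ACP2 on the other strand. NR1H2, LXR beta, stood at 65.3, 69.6 and 62.2 CPM in 2D, 42.8, 39.1 and 40.3 on Day 3 and 38.8, 29.6 and 25.9 on Day 28. NR1H2 fell by 0.69 ± 0.101 on Day 3 (adjusted p = 2.38e-07) and by 1.07 ± 0.103 on Day 28 (adjusted p = 4.25e-11). Its fall of 0.38 ± 0.104 between Day 3 and Day 28 (adjusted p = 0.00195) was not called without Day 28 replicate 3 (-0.23, adjusted p = 0.0606).

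Of 9 tested genes of FXR signalling and bile acid feedback, 6 rose and 3 fell both on Day 3 (median 2.01) and on Day 28 (median 1.61). SLC51A, a bile acid exporter subunit, went from 1.61 ± 0.512 CPM (SD, n = 3) in 2D to 31.5 ± 8.8 on Day 28, and KLB, the coreceptor for FGF19, from 23.6 ± 0.613 to 162 ± 7.01. BAAT, which conjugates bile acids to amino acids, fell by 1.39 ± 0.159 on Day 28, and ABCB4, the phospholipid exporter of bile, fell by 0.63 ± 0.224 (adjusted p = 0.0128). The ABCB4 call was lost without 2D replicate 2 (adjusted p = 0.116), without Day 28 replicate 1 (adjusted p = 0.0749) and with scaling by library size alone (adjusted p = 0.11). SLC51B, the other subunit of the exporter, singled out after its values were seen, stood at 21 ± 1.89 CPM (SD, n = 3) in 2D and 18 ± 2.47 on Day 28; its call (-0.23, adjusted p = 0.0439) was lost without 2D replicate 2 (adjusted p = 0.139), 2D replicate 3 (adjusted p = 0.241) and Day 28 replicate 2 (adjusted p = 0.426). It was also lost with scaling by library size alone (adjusted p = 0.877), with other filters (adjusted p = 0.0954 and 0.0703) and with only the groups compared (adjusted p = 0.0934). The 3 genes lower on Day 28 were thus 1 with scaling by library size alone and 1 without 2D replicate 2. On Day 3 the lower genes were not the same: BAAT (-2.93 ± 0.173), ABCB4 (-2.80 ± 0.254) and CYP7A1 (-1.47 ± 0.568, adjusted p = 0.0196). SLC51B was higher on that day, by 0.89 ± 0.101 (adjusted p = 1.24e-09). The CYP7A1 call, at a mean of 0.297 CPM, was lost without 2D replicate 1 (adjusted p = 0.0837) and without Day 3 replicate 3 (adjusted p = 0.0632).

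Of 9 tested LXR targets, 7 rose and 1 fell at both days, with medians of 1.42 on Day 3 and 1.66 on Day 28. The sterol exporter subunits ABCG8 and ABCG5 rose on Day 28 by 3.83 ± 0.225 and 2.83 ± 0.131, and ABCG8 by 4.44 without 2D replicate 1. ABCG5 went from 3.31 ± 0.143 CPM (SD, n = 3) in 2D to 23.5 ± 1.31 on Day 28. MYLIP, which marks the LDL receptor for degradation, was the target that fell, by 1.13 ± 0.263 on Day 28.

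The xenobiotic receptors moved in opposite directions between Day 3 and Day 28. NR1I2 (PXR) stood at 3.73, 3.59 and 2.93 CPM in 2D, 7.93, 7.85 and 5.35 on Day 3, 8.4, 7.46 and 8.13 on Day 7 and 4.16, 2.46 and 4.04 on Day 28. Day 28 overlapped the monolayer. NR1I2 rose by 1.05 ± 0.187 on Day 3 (adjusted p = 6.77e-06) and fell by 1.01 ± 0.19 from Day 3 to Day 28 (adjusted p = 2.59e-05), and on Day 28 it was not called against 2D (0.04, adjusted p = 0.884). Its calls on Day 14 and Day 21 (0.51 and 0.49) were lost without 2D replicate 3 (adjusted p = 0.071 and 0.0761) and also without Day 14 replicate 2 (adjusted p = 0.0537), and without Day 21 replicate 2 (adjusted p = 0.0525).

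NR1I3 (CAR) stood at 1.44, 0.865 and 0.716 CPM in 2D, 1.04, 1.45 and 1.35 on Day 3, 2.37, 3.28 and 4.78 on Day 7, 7.63, 8.88 and 7.7 on Day 21 and 10.4, 5.2 and 4.93 on Day 28. Day 3 overlapped the monolayer, and each later day lay above it. NR1I3 was not called on Day 3 (0.37 ± 0.325, adjusted p = 0.297) and rose by 2.78 ± 0.294 on Day 28 (adjusted p = 4.33e-10) and by 2.40 ± 0.283 from Day 3 to Day 28 (adjusted p = 8.1e-09). Its annotated exons share 661 bases with TOMM40L on the other strand. Of 10 tested PXR and CAR targets, 4 rose and 4 fell on Day 3 (median 0.60), and 3 rose and 3 fell on Day 28 (median 0.38). CYP3A5 and CYP3A7, drug-oxidizing enzymes of 1 cluster of near-identical genes whose counts may be shared, rose on Day 28 by 2.19 ± 0.171 and 1.99 ± 0.222. The efflux pumps ABCB1 and ABCC2 fell by 1.66 ± 0.0604 and 0.64 ± 0.0624, ABCB1 from 835 ± 14.3 CPM (SD, n = 3) to 264 ± 12.9.

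NR3C1, the glucocorticoid receptor, was lower than in 2D at each day and higher on Day 28 than on Day 3. It stood at 68.6, 78.1 and 73.9 CPM in 2D, 23.1, 25.7 and 22.8 on Day 3, 23.7, 27.1 and 28.9 on Day 10, 45.5, 42.3 and 46.2 on Day 14, 33.7, 35.3 and 35.7 on Day 21 and 48, 60.8 and 52 on Day 28. No spheroid library reached the monolayer. NR3C1 fell by 1.62 ± 0.09 on Day 3 (adjusted p = 2.23e-17) and by 0.45 ± 0.0869 on Day 28 (adjusted p = 2.26e-05), and rose by 1.17 ± 0.0901 between them (adjusted p = 5.1e-13). NR3C2, the mineralocorticoid receptor, was between 0.646 and 2.46 CPM in all libraries and passed at no day; its Day 3 value of -0.61 ± 0.314 (adjusted p = 0.074) was called without 2D replicate 3 (adjusted p = 0.0471), and without Day 3 replicate 3 (adjusted p = 0.0287).

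Of 10 tested glucocorticoid receptor targets, 4 rose and 5 fell on Day 3 (median -1.34), and 3 rose and 5 fell on Day 28 (median -0.17). Between Day 3 and Day 28, 7 rose and 3 fell, with a median of 1.01 against 0 for all genes. TAT, a tyrosine-degrading enzyme and a textbook target, went from 110 ± 1.14 CPM (SD, n = 3) in 2D to 27.6 ± 1.23 on Day 3 and 374 ± 64.2 on Day 28. PCK1, of glucose synthesis, rose by 4.41 ± 0.288 on Day 28 against 2D, while DUSP1, a phosphatase of stress kinases, fell by 3.34 ± 0.0923.

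Thyroid hormone receptor genes differed from each other. THRB, the main form in liver, stood at 10.5, 10.3 and 8.56 CPM in 2D, 17.5, 17.6 and 17.4 on Day 3 and 17.8, 18.5 and 19.4 on Day 28. It rose by 0.84 ± 0.135 on Day 3 (adjusted p = 1.12e-06) and by 0.93 ± 0.136 on Day 28 (adjusted p = 2.61e-07). THRA ranged from 14.4 to 17.7 CPM in 2D, 10.4 to 12.1 on Day 3 and 13.3 to 15.2 on Day 28; it fell by 0.49 ± 0.142 on Day 3 (adjusted p = 0.00238) and was not called on Day 28 (-0.14, adjusted p = 0.382). Of 5 tested thyroid hormone targets and ligand-handling genes, 3 rose and 1 fell on Day 3 and 4 rose on Day 28 with none lower. SHBG, the carrier of sex steroids, was among them at 0.97 ± 0.192. The 3 higher on Day 3 were 1 without Day 3 replicate 2, where HR (adjusted p = 0.0946) and THRSP (adjusted p = 0.0862) were not called; THRSP had 0 counts in 2D and 13 over the Day 3 libraries. HR was also not called without 2D replicate 1 (adjusted p = 0.132) or without a filter beyond 1 count (adjusted p = 0.0607). The 4 higher on Day 28 were 1 in a fit of only the groups compared. The others did not pass the filter on low counts of that fit and were not tested there.

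Both clock-receptor genes lie in clusters with thyroid hormone and retinoic acid receptors. On chromosome 17 NR1D1 overlaps THRA and RARA follows at 40309192 to 40357643, and on chromosome 3 NR1D2 (23945260 to 23980618) is followed by THRB at 24117153 to 24495756 and RARB at 25174332 to 25597932. On chromosome 17 all 3 genes fell on Day 3, whereas on chromosome 3 NR1D2 fell, THRB rose and RARB had 3 counts in all libraries together. NR5A1 and NR6A1 are also neighbours, on the minus strand of chromosome 9 at 124481236 to 124507430 and 124517275 to 124771310; NR6A1 rose on Day 3 and NR5A1 was not called there (-0.04, adjusted p = 0.533).

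RARA, a retinoic acid receptor, was lower at each day. It stood at 95.5, 84.7 and 93.1 CPM in 2D, 44.6, 41.4 and 44.8 on Day 3 and 63, 49.4 and 51.2 on Day 28, and fell by 1.06 ± 0.0881 on Day 3 (adjusted p = 8.12e-13) and by 0.74 ± 0.0879 on Day 28 (adjusted p = 3.87e-09). RARG, its epithelial relative, had 0 counts in the 3 monolayer libraries, 13, 14 and 14 on Day 3, 22, 29 and 12 on Day 7, 0, 8 and 5 on Day 10, 7, 11 and 3 on Day 14, 4, 4 and 6 on Day 21 and 0, 0 and 1 on Day 28. Against a floor of 3 counts over the monolayer group, RARG was at least 13.1-fold higher on Day 3, 17.1-fold on Day 7, 4.42-fold on Day 10, 7.12-fold on Day 14 and 4.39-fold on Day 21. RARG passed the filter on low counts through spheroid libraries, where it was high, so its tests lend no support here, although its calls are part of the counts of receptors called.

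RXRA, the common partner of these receptors, stood at 32.1, 34.8 and 34.8 CPM in 2D, 46.5, 48 and 55.4 on Day 3 and 43, 41.6 and 40.2 on Day 28. It rose by 0.56 ± 0.0817 on Day 3 (adjusted p = 2.28e-07) and by 0.29 ± 0.0825 on Day 28 (adjusted p = 0.00203), and its Day 14 call (0.25) was lost without 2D replicate 1 (adjusted p = 0.0612). The fall of 0.26 ± 0.0815 between Day 3 and Day 28 (adjusted p = 0.00575) was not called without Day 3 replicate 3 (adjusted p = 0.133) and not without Day 28 replicate 3 (adjusted p = 0.0502). RXRB was between 28.1 and 38.6 CPM in all libraries and was not called against 2D at any day; with scaling by library size alone it was called higher at Days 3, 7, 21 and 28, by 0.24 to 0.34.

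Of 10 tested genes of retinoid signalling, 6 rose and 3 fell on Day 3 (median 1.25), and 4 rose and 3 fell on Day 28 (median 1.04). RDH16, a retinol dehydrogenase, and RBP4, the plasma retinol carrier, rose on Day 28 by 4.41 ± 0.485 and 1.99 ± 0.0634. RDH16 averaged only 1.12 CPM over the 2D and Day 28 libraries, most of it on Day 28. Its test therefore lends no support here, although its call is part of the counts above. TGM2, a transglutaminase induced by retinoic acid, fell by 2.60 ± 0.124. The vitamin D receptor VDR was not detected, with 56 counts in all libraries together and at least 10 in 2 of them. CYP24A1, the vitamin D degrading enzyme, singled out after its values were seen, stood at 4.24 ± 1.53 CPM (SD, n = 3) in 2D, 41.8 ± 2.95 on Day 3, 44 ± 5.27 on Day 10, 28.6 ± 2.97 on Day 14, 5.29 ± 2.35 on Day 21 and 4.54 ± 2.11 on Day 28. CYP24A1 rose by 3.33 ± 0.32 on Day 3 (adjusted p = 8.91e-08) and fell by 3.17 ± 0.32 between Day 3 and Day 28 (adjusted p = 3.48e-07). Of the 5 tested genes of vitamin D handling, 4 rose and 1 fell on Day 3 and 3 rose with none lower on Day 28.

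**Figure D3:**
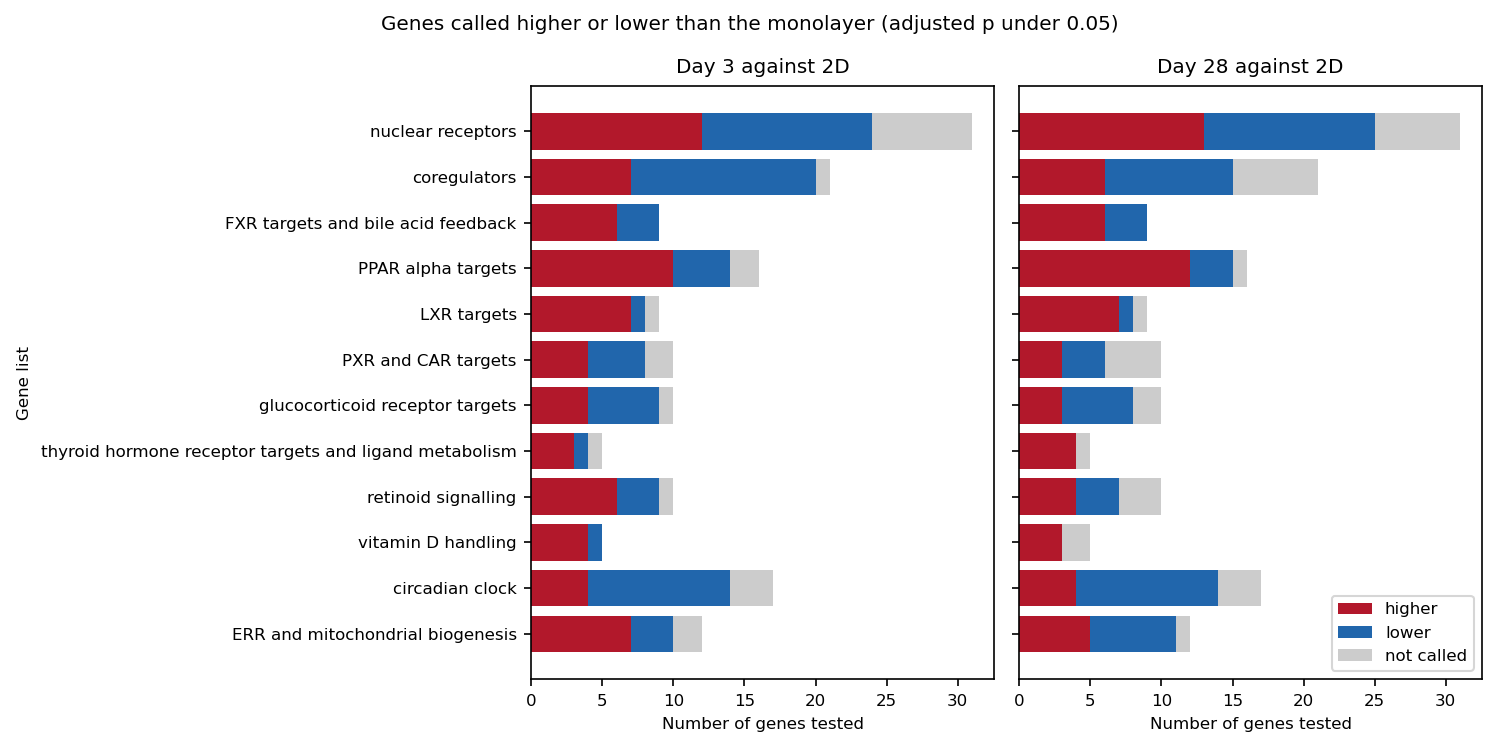
Bars give the number of tested genes that were higher, lower or not called against 2D, on Day 3 and on Day 28. The first bar is the 31 tested receptors themselves, and the others are 11 lists of receptor targets and partners. Clock genes had more members lower than higher at both days (10 against 4), and LXR targets more higher than lower (7 against 1).

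Orphan receptors, which have no agreed natural ligand, moved in both directions. NR2F2, COUP-TF II, stood at 2.12, 1.55 and 1.89 CPM in 2D, 6.26, 6.3 and 8.43 on Day 3 and 6.46, 6.11 and 5.59 on Day 28, and rose by 1.93 ± 0.185 (adjusted p = 2.78e-11) and 1.72 ± 0.188 (adjusted p = 7.26e-10). Its paralog NR2F1, COUP-TF I, stood at 144, 149 and 151 CPM in 2D, 81.5, 82.2 and 78.1 on Day 3, 79.8, 86.3 and 88.9 on Day 10, 142, 143 and 151 on Day 14 and 101, 89 and 97 on Day 28. NR2F1 fell by 0.87 ± 0.0621 on Day 3 (adjusted p = 1.61e-14) and by 0.63 ± 0.062 on Day 28 (adjusted p = 7.17e-11), and on Day 14 it overlapped the monolayer (-0.02, adjusted p = 0.768; 0.17, adjusted p = 0.0137 with scaling by library size alone). NR2F6, the third COUP-TF, rose by 0.82 ± 0.128 on Day 3 (adjusted p = 8.47e-07) and by 1.04 ± 0.129 on Day 28 (adjusted p = 9.93e-09).

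The testicular receptors TR2 and TR4, which can bind DNA as a pair, went opposite ways. NR2C1 (TR2) rose from 10.9, 10.9 and 10.6 CPM in 2D to 18, 17.5 and 16.2 on Day 3 and 21.6, 20.3 and 17.3 on Day 28. NR2C2 (TR4) stood at 26.6, 23 and 22.8 CPM in 2D, 7.26, 6.99 and 8.65 on Day 3 and 10.7, 12.8 and 12.5 on Day 28. NR2C1 rose by 0.68 ± 0.109 on Day 3 (adjusted p = 1.34e-06), and NR2C2 fell by 1.66 ± 0.147 on Day 3 (adjusted p = 4.21e-12) and by 1.00 ± 0.144 on Day 28 (adjusted p = 2.03e-07). Annotated exons of NR2C2 share 1197 bases with MRPS25 on the other strand.

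NR6A1, the germ cell nuclear factor of early embryos, stood at 179, 154 and 160 CPM in 2D, 367, 370 and 378 on Day 3, 283, 296 and 313 on Day 10 and 220, 238 and 241 on Day 28. Its spheroid libraries all exceeded 2D, and Day 28 lay below Day 3 without overlap. NR6A1 rose by 1.18 ± 0.0622 on Day 3 (adjusted p = 5.94e-18) and by 0.50 ± 0.0618 on Day 28 (adjusted p = 8.7e-09), and fell by 0.67 ± 0.0615 from Day 3 to Day 28 (adjusted p = 2.83e-11). HNF4G, a hepatocyte nuclear factor, went from 140, 137 and 139 CPM in 2D to 87.2, 86.7 and 88.7 on Day 3, 79.8, 80.9 and 81.7 on Day 10 and 118, 114 and 127 on Day 28. It fell by 0.66 ± 0.0575 on Day 3 (adjusted p = 2.78e-12) and by 0.21 ± 0.0573 on Day 28 (adjusted p = 0.00181), the second of which was not called with scaling by library size alone, like those of Days 14 and 21.

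ESRRA, an estrogen-related receptor that works with PGC-1 coactivators on mitochondrial genes, was low throughout, with 11 to 73 counts per library. It stood at 1.53, 1.25 and 1.98 CPM in 2D, 0.7, 0.646 and 0.318 on Day 7, 0.455, 0.653 and 0.904 on Day 10, 1.8, 1.92 and 1.93 on Day 14 and 1.55, 1.23 and 2.83 on Day 28. ESRRA fell against 2D on Day 7 by 1.51 ± 0.374 (adjusted p = 0.000494) and on Day 10 by 1.22 ± 0.374 (adjusted p = 0.00396), and was not called at the other days. Annotated exons share 284 bases with TRMT112 on the other strand. Of 12 tested genes of the ERR and mitochondrial biogenesis list, 7 rose and 3 fell on Day 3 (median 0.23), and 5 rose and 6 fell on Day 28 (median -0.04). With scaling by library size alone the Day 28 numbers were 6 higher and 3 lower: COX5A (adjusted p = 0.825), NDUFS1 (adjusted p = 0.109) and SDHA (adjusted p = 0.0743) were no longer called lower, and TFAM was called higher (0.36, adjusted p = 7.08e-05). CYCS, cytochrome c, rose by 1.54 ± 0.121 on Day 28 and MFN2, of mitochondrial fusion, fell by 1.50 ± 0.0549.

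NR4A1, an immediate early receptor, had 4, 32 and 23 counts in 2D, 6, 14 and 3 on Day 3, 3, 1 and 7 on Day 21 and 0, 5 and 1 on Day 28. It was called lower on Day 28 (-2.96 ± 0.948, adjusted p = 0.00604; -4.48 without Day 28 replicate 2) and on Day 21 (-2.37 ± 0.856, adjusted p = 0.0137). The Day 21 call was lost without 2D replicate 2 (adjusted p = 0.0686), Day 21 replicate 1 (adjusted p = 0.0538), and without Day 21 replicate 2 (adjusted p = 0.0682), and without Day 21 replicate 3 the value was -3.22. No library of Day 21 or Day 28 held 10 counts of NR4A1, so it passed the filter on low counts through libraries of other groups. These NR4A1 tests therefore lend no support here, although its calls are part of the counts of receptors called. NR4A2 had 6 counts in all, 4 and 2 of them in the first and second monolayer library. NR4A3 had 18, 6 and 2 counts in 2D and 0 to 9 in each spheroid library, and was not detected under the rule. Its Day 21 libraries held 0 counts, at least 9.21-fold lower than 2D against a floor of 3 counts over the group.

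The members nearest the detection limit were NR4A1, with at least 10 counts in 6 libraries, and RARG, in 7, on the inside, and VDR, in 2, and NR4A3, in 1, on the outside. Of the 14 receptors not detected, 5 had 0 counts in all 21 libraries: RORB, ESRRB, ESRRG, PGR and NR0B1. RARB, RXRG, NR2E1, NR2E3, ESR2 and NR4A2 had 1 to 6 counts in all libraries together, and ESR1 had 13. Of the 31 detected receptors, 28 had at least 10 counts in all 21 libraries, and NR5A2 had them in 19.

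Coregulators that nuclear receptors recruit were counted from a separate list. Of 21 tested, 7 rose and 13 fell on Day 3 (median -0.35), and 6 rose and 9 fell on Day 28 (median -0.20). PPARGC1A, the coactivator PGC-1 alpha, went from 17.5 ± 1.02 CPM (SD, n = 3) in 2D to 26 ± 1.14 on Day 3, 28.1 ± 2.14 on Day 10, 71.6 ± 5.55 on Day 14 and 75.8 ± 8.7 on Day 28, a rise of 2.12 ± 0.101 on Day 28. NCOA2, a p160 coactivator, rose by 1.06 ± 0.0891 on Day 28, whereas its relative NCOA3 fell by 1.39 ± 0.114 and PNRC1, a small receptor-binding coactivator, by 1.30 ± 0.0675. With scaling by library size alone the Day 3 calls of EP300, LCOR and MED1, each lower, were lost.

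Among spheroids, 27 of the 31 receptors changed at some day by edgeR's F test (87.1%, against 76.2% of all genes tested), and the exceptions were RXRB, NR1H3, NR3C2 and NR4A1. NR1H3 (adjusted p = 0.0822) was called with DESeq2 (adjusted p = 0.0473), library size alone (adjusted p = 0.043), no filter beyond 1 count (adjusted p = 6.94e-05) and the replicate block (adjusted p = 0.0186). It was also called without Day 14 replicate 2 or 3, Day 21 replicate 3 or Day 28 replicate 1 (adjusted p = 0.00935 to 0.0254). RXRB (adjusted p = 0.0777) was called with DESeq2 (adjusted p = 0.0468) and without Day 3 replicate 2 (adjusted p = 0.0363). Of the 27, RORA was not called without Day 28 replicate 2 (adjusted p = 0.156) or replicate 3 (adjusted p = 0.139). NR1H2 was not called without Day 28 replicate 3 (adjusted p = 0.052). NR2F2 was not called when any of the Day 10 libraries or Day 21 replicate 2 was left out (adjusted p = 0.0504 to 0.0995). From Day 10 to Day 14, 13 of the 31 were called (41.9%, against 48.3% of all genes). Of these, 12 rose (38.7%, against 24% of all genes) and 1 fell (3.23%, against 24.3%), with a median of 0.32 against 0.02. The 12 were RARA, PPARD, NR1D2, NR1H4, HNF4G, NR2C2, NR2F1, NR2F6, ESRRA, NR3C1, NR5A1 and NR0B2. ESRRA and NR0B2 rose most, by 1.47 ± 0.371 (adjusted p = 0.00132) and 1.02 ± 0.0682 (adjusted p = 3.76e-14). NR2F1 rose by 0.78 ± 0.062 (adjusted p = 2.83e-12), NR3C1 by 0.75 ± 0.0894 (adjusted p = 1.87e-08), NR5A1 by 0.70 ± 0.0645 (adjusted p = 6.27e-11) and NR1H4 by 0.67 ± 0.0973 (adjusted p = 7.55e-07). In 17 of the 31 receptors the libraries of Days 10 and 14 did not overlap, against 55.3% of all genes in either direction. Of these receptors 16 were higher and 1 lower on Day 14, and the share of all genes in each direction was not counted. Of the 9 hepatocyte markers, 2 rose and 6 fell in this comparison, and their part in the receptor counts was not tested.

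NR6A1 was the receptor that fell from Day 10 to Day 14, by 0.18 ± 0.0612 (adjusted p = 0.0153); it was not called without Day 10 replicate 3 (adjusted p = 0.0894), without Day 14 replicate 2 (adjusted p = 0.0818) and with scaling by library size alone (adjusted p = 0.105). The PPARD rise of 0.39 ± 0.132 (adjusted p = 0.0141) was lost without Day 10 replicate 1 (adjusted p = 0.0541), Day 10 replicate 2 (adjusted p = 0.0555), and without Day 14 replicate 3 (adjusted p = 0.214). The NR2C2 rise of 0.45 ± 0.152 (adjusted p = 0.0149) was lost without Day 10 replicate 2 (adjusted p = 0.0912), and without Day 14 replicate 3 (adjusted p = 0.11). Of the 21 coregulators, 14 rose and 3 fell from Day 10 to Day 14 (median 0.40), PPARGC1A by 1.35 ± 0.0969.

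**Figure D4:**
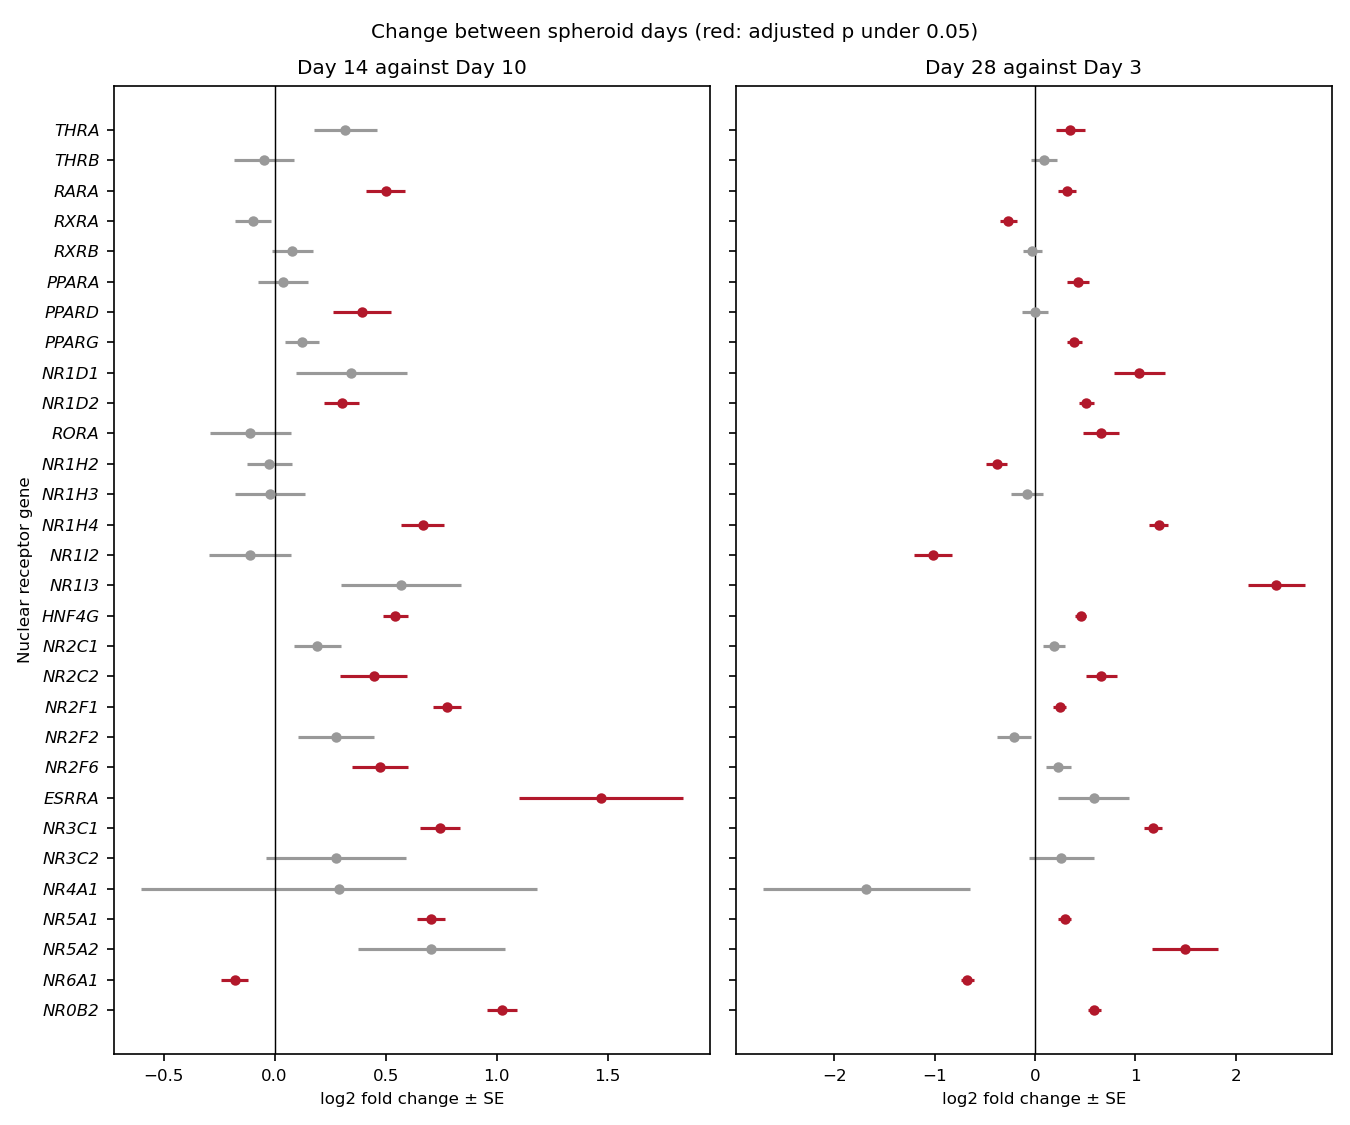
Log2 fold change ± SE of 30 receptors for Day 14 against Day 10 and for Day 28 against Day 3, in red where edgeR's adjusted p was under 0.05; RARG, with 1 count on Day 28, is left out. From Day 10 to Day 14 the called receptors lie right of 0 except NR6A1 at -0.18, and from Day 3 to Day 28 NR1I3 lies farthest right at 2.40.

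From Day 3 to Day 28, 21 of the 31 were called (67.7%, against 59.6% of all genes): 16 rose (51.6%, against 29.5%) and 5 fell (16.1%, against 30.2%), with a median of 0.3 against 0. The 5 with the largest rises among those with a mean of at least 1 CPM were NR1I3, NR5A2, NR1H4, NR3C1 and NR1D1, and RARG, NR1I2, NR6A1, NR1H2 and RXRA fell. In 22 of the 31 receptors the libraries of the 2 days did not overlap, against 63.9% of all genes in either direction. Of these receptors 17 were higher and 5 lower on Day 28, and the share of all genes in each direction was not counted. The THRA rise of 0.35 ± 0.144 (adjusted p = 0.0353) was lost without Day 3 replicate 3 (adjusted p = 0.0951), Day 28 replicate 2 (adjusted p = 0.0683), and without Day 28 replicate 3 (adjusted p = 0.0689).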

How the data were processed

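RNA from 21 libraries was measured by TempO-Seq, with 100 ng of total RNA per library per the labels' protocols. The values used are raw counts by gene symbol, deposited by the authors as a single table. Per the submitters' processing notes the tools were STAR 2.7.10b, fastp 0.23.2, bcl2fastq 2.20.422 and DESeq2 1.38.0 on the build GRCh38.p13; their roles are not given. No source used here says how the oligos of 1 gene were combined, and genes with near-identical copies may share counts.

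Counts passing filterByExpr (minimum 10) entered 1 robust quasi-likelihood fit over all libraries (edgeR 4.0.16, limma 3.58.1, R 4.3.3) after TMM scaling, without a replicate block. P-values were Benjamini-Hochberg adjusted over 12345 genes, and an SE is the absolute log2 fold change divided by the square root of F. The script was tested on simulated counts. Replicate pairs differed by more than sampling noise (chi-square per degree of freedom 5.68 to 29.7), so none was counted as 1 library.

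Named receptors were, per comparison, up to 5 called members that rose most and 5 that fell most at a mean of at least 1 CPM, and named list genes the 2 each way at Day 28. Members and lists were chosen with earlier results of these data known. Alternatives were DESeq2 1.42.0, library size alone, other filters, a replicate block, fits of only the groups compared and leaving out each library. Locations come from GENCODE 29 on GRCh38, matched by symbol. A few named genes are not reported here.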

Additional observations from a re-analysis of the deposited data

How the results depend on the processing

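Of 420 values of the named receptors under the alternatives, 414 kept their direction and their side of the threshold, 6 lost the call and none reversed. DESeq2 gave the same numbers of receptors higher and lower in all 8 comparisons. The number of receptors lower at Day 14 than at Day 10 was 1. It went to 0 with scaling by library size alone and ranged from 0 to 1 with single libraries left out. That scaling gave 15 receptors higher at Day 14 than at Day 10. Against 2D it gave 15 higher and 11 lower on Day 3, 16 and 12 on Day 7 and 13 and 13 on Day 10. Days 14, 21 and 28 then had 15 and 9, 16 and 11, and 14 and 11. Of all genes called on Day 3, 59.2% were higher under that scaling, against 51.5% in the main fit. Receptors lower at Day 28 than at Day 3 ranged from 3 to 5 with single libraries left out, the lowest without Day 28 replicate 3. Leaving out libraries gave 10 to 14 receptors higher at Day 14 than at Day 10 (main 12), 15 to 16 higher at Day 28 than at Day 3 (main 16) and 25 to 29 changed among spheroid days (main 27). NR4A3 and VDR, outside the filter of the fit with all libraries, were tested under some alternatives; they passed through the libraries where they were high, and their calls are not given.

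The replicate numbers were not treated as pairs: deviations of same-numbered libraries had a mean correlation of 0.0176 over 63 pairs of libraries, none over 0.1, while 16 of 21 libraries correlated best with 1 of their own number, a hint from the data only. With the replicate block, 12 receptors were higher and 12 lower at Day 3, 13 and 12 at Day 28, 14 and 1 from Day 10 to Day 14, and 16 and 5 from Day 3 to Day 28. Depth limits RARG, NR4A1, NR5A2, ESRRA and the undetected receptors, whose values rest on few counts.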
